A study of Mus musculus with 4 samples.

Results

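The 10 genes described here make or remove reactive oxygen species in the mouse heart. Nox4, Cybb and Cyba encode parts of NADPH oxidases, Sod2, Cat and Gpx3 encode enzymes that remove superoxide and peroxides, Hmox1 and Nqo1 encode stress-induced enzymes, and Mt1 and Mt2 encode metallothioneins. They were found as the probes that the array files name by a transcript of one of these genes. That gave 14 of the 55681 probes other than controls, for 10 of the 21658 genes with a named transcript. Nox4, Cyba, Hmox1 and Cat have 2 probes each and the other genes 1, and the brighter probe stands for the gene below.

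Pressure overload was produced by transverse aortic constriction (TAC), in which a ligature narrows the aortic arch, and sham-operated mice served as controls. Total RNA from hearts of male mice, C57BL/6J by the methods, was measured on 4 one-color Agilent arrays, 1 for each of sham and TAC at 2 weeks, the stage of hypertrophy, and at 8 weeks, the stage of heart failure. Mice of the 2-week groups are labelled as 10 weeks old and those of the 8-week groups as 16 weeks old, ages that could not be reconciled with the age at surgery in the methods. Each array held a pool of RNA from several mice, so the spread between mice was not measured, no test was possible within a time, none was made over both times, and each fold change is the ratio of 2 pools. The screen was made to find long intergenic noncoding RNAs that rise with pressure overload, and its probes for protein-coding genes were read here.

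NADPH oxidases move electrons from NADPH across a membrane to oxygen. Cybb encodes NOX2, the catalytic subunit of the phagocyte oxidase, which gives superoxide only after cytosolic subunits have joined it. NOX4 makes mostly hydrogen peroxide and is active without such subunits, and both depend on p22phox, the product of Cyba. In the heart NOX4 is found in cardiomyocytes, fibroblasts and endothelial cells, and NOX2 also in infiltrating macrophages and neutrophils. Superoxide dismutases turn superoxide into hydrogen peroxide, which catalase and glutathione peroxidases break down. Heme oxygenase 1 and NQO1 are classical targets of the transcription factor NRF2, and metallothioneins are small cysteine-rich proteins that bind zinc and copper and are induced by metals, glucocorticoids and oxidative stress.

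Each value below is the probe's intensity after background subtraction, divided by the 75th percentile over the probes of its array. A value of 1 is therefore the 75th percentile, and the same probe can be compared across arrays but not one probe with another. This percentile was 206.0 to 248.5 intensity units, and 54.7% to 58.6% of probes were well above background by the flag in the files. Each of the 14 probes has 1 spot per array. On the same arrays, probes printed as 10 spots gave single-spot log2 ratios with an SD of 0.138 for TAC over sham at 2 weeks and 0.129 at 8 weeks. Where such probes lay below 0.25 of the percentile, the SD was 0.258 and 0.241. These SDs cover the noise between spots of 1 array and not the spread between mice or pools. No spot was saturated, and 1 slide, scanned once, held all 4 arrays. The labels were checked with the hypertrophy genes Nppa, Nppb, Myh7 and Acta1, all 4 of which were more than 2-fold higher in TAC at both times, and all 8 cardiomyocyte markers were well above background.

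Among the 10 genes, Nox4 and Mt2 were more than 2-fold higher in TAC hearts at both times. At 2 weeks they were 2 of 10 genes, where 2.42% of 15372 measured genes were more than 2-fold higher, and none of the 10 was among the 1.18% more than 2-fold lower. At 8 weeks they were again 2 of 10, where 3.27% of 15432 genes were higher, and none was among the 2.05% that were lower. With a 1.5-fold limit the 3 genes higher at 2 weeks were Nox4, Cybb and Mt2, against 6.78% of all genes. At 8 weeks there were 6, Nox4, Hmox1, Nqo1, Gpx3, Mt1 and Mt2, against 7.24% of all genes. Hmox1 passed this limit on its brighter probe only. Nox4 was called past 2-fold on its brighter probe only, and that call also depended on the background correction, as given below. None of the 10 was more than 1.5-fold lower, whereas 3.32% of all genes were at 2 weeks and 5.62% at 8 weeks. The 10 genes were chosen with earlier results of these data known, so these shares describe them and are not a test. The median log2 ratio of TAC over sham over the 10 genes was 0.32 at 2 weeks and 0.69 at 8 weeks, against 0.00 and -0.01 over all measured genes.

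**Figure D1:**
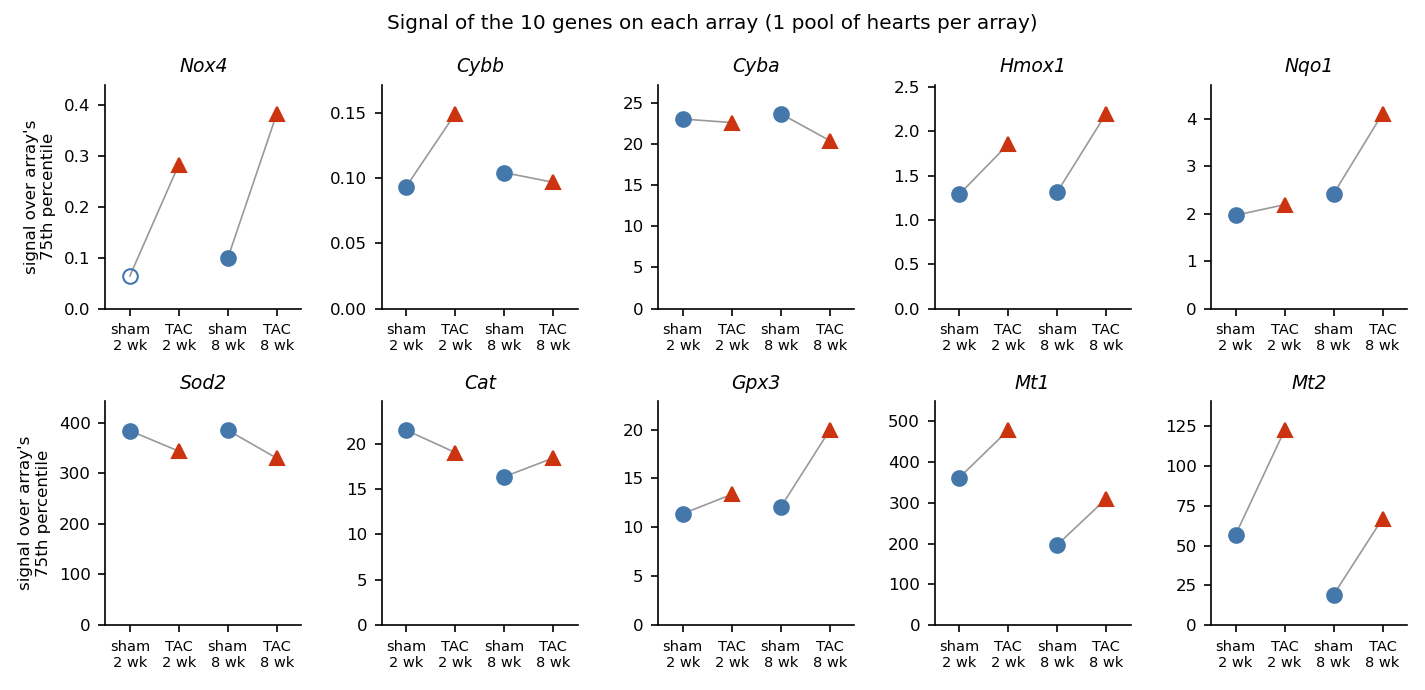
Signal of each of the 10 genes on the 4 arrays, as a multiple of the array's 75th percentile, on a linear axis that starts at 0 and differs between panels. Circles are sham pools, triangles TAC pools, lines join the pools of 1 time, and the open circle marks Nox4 below background in sham at 2 weeks. Nox4 shows the steepest line at both times and Mt2 the next steepest at 2 weeks. The Mt1 and Mt2 sham pools differ between the times.

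Nox4 was more than 2-fold higher in TAC at both times. Its signal was 0.0639 in sham and 0.283 in TAC at 2 weeks, and 0.0989 in sham and 0.383 in TAC at 8 weeks. Both TAC pools lay above both sham pools. Nox4 was not well above background in sham at 2 weeks, so its level there was taken as an upper bound. On that reading TAC was at least 4.42-fold higher. Such bounds leave out the noise between spots, an SD of 0.258 on the log2 scale for this ratio. At 8 weeks all signals were measured and TAC was 3.87-fold higher, a log2 ratio of 1.95. It ranked 167 of 15432 genes from the top at 8 weeks. The sham pool at 8 weeks was at least 1.55-fold above that at 2 weeks, and 3.81% of 15155 genes were more than 1.5-fold higher in that comparison.

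The size of the Nox4 difference depended on the probe and on the background correction. The dimmer Nox4 probe gave 0.0343, 0.0476, 0.0468 and 0.0786 in sham and TAC at 2 weeks and in sham and TAC at 8 weeks, and was well above background only in TAC at 8 weeks. There TAC was at least 1.68-fold higher than sham, and at 2 weeks no fold could be given. With the normexp correction, which adds an offset to every signal and so weighs most on dim probes, the log2 ratio of the brighter probe was 0.55 at 2 weeks and 0.79 at 8 weeks, below 2-fold at both times and below Mt2, which had 1.12 and 1.80 with this correction.

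Of the 8 fibroblast markers 5 were more than 1.5-fold higher in TAC at each time, against 6.78% and 7.24% of all genes. The median log2 ratio of all 8 was 0.89 and 0.85. Their summed signal was 208 in sham and 287 in TAC at 2 weeks, and 232 and 339 at 8 weeks. Without the brightest, Dcn, it was 65.2, 126, 65.1 and 135. Postn, which encodes a matrix protein of activated fibroblasts, was 4.90-fold and 7.59-fold higher, whereas Tcf21, a transcription factor of resident fibroblasts, had log2 ratios of 0.07 and -0.55. In whole-heart RNA, more cells of a type and more RNA per cell cannot be told apart, and the part of fibroblasts in the Nox4 difference was not tested. The 8 cardiomyocyte markers had a median log2 ratio of -0.17 at both times, with summed signals of 7243 and 6807 at 2 weeks and 6917 and 6139 at 8 weeks, and 1 of them, Ryr2, was more than 1.5-fold lower at 8 weeks.

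Cybb, the NOX2 gene, was past 1.5-fold at 2 weeks and not at 8 weeks. Its signal was 0.0935 in sham and 0.149 in TAC at 2 weeks, and 0.104 in sham and 0.0968 in TAC at 8 weeks. TAC was 1.60-fold higher at 2 weeks, a log2 ratio of 0.68, and the log2 ratio at 8 weeks was -0.11. The ratio at 8 weeks was lower than that at 2 weeks by -0.78 on the log2 scale. In 3.65% of the 14259 genes well above background on all arrays the ratio at 8 weeks was more than 1.5-fold below that at 2 weeks. Cybb was dim, the SD for probes of such signal was 0.258, and with the normexp correction its log2 ratio at 2 weeks was 0.07.

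Macrophage markers were higher in TAC at both times. Of 13 markers 12 lay above 0 at each time, with a median log2 ratio of 0.44 at 2 weeks and 0.40 at 8 weeks. More than 1.5-fold higher were 3 at 2 weeks and 1 at 8 weeks, against 6.78% and 7.24% of all genes. Cd14, the lipopolysaccharide co-receptor of monocytes, was 1.64-fold and 1.88-fold higher. The summed signal of the markers was 203 in sham and 215 in TAC at 2 weeks, and 202 and 215 at 8 weeks. Without the brightest, Itgam, it was 51.8, 66.0, 53.4 and 70.6. The part of macrophages in the Cybb signal was not tested.

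Cyba, which encodes the p22phox subunit of both oxidases, differed little. Its signal was 23.0 in sham and 22.6 in TAC at 2 weeks, and 23.7 and 20.4 at 8 weeks, with log2 ratios of -0.03 and -0.21. The other Cyba probe gave 0.04 and -0.23. At 2 weeks both ratios were smaller than the SD between spots and their signs differ. At 8 weeks both probes were lower in TAC by more than that SD and by less than 1.5-fold. Without scaling between arrays the ratio of the brighter probe at 8 weeks was -0.05, smaller than that SD.

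Of the other oxidase subunits, 13 were listed, 12 had a probe and 8 were measured. Their median log2 ratio was 0.38 at 2 weeks and 0.26 at 8 weeks. Ncf1, which encodes the organizer subunit p47phox of the phagocyte oxidase, gave 0.168 in sham and 0.265 in TAC at 2 weeks, and 0.200 and 0.324 at 8 weeks. It was 1.58-fold and 1.62-fold higher in TAC. Ncf4, which encodes p40phox, was past 1.5-fold at 2 weeks only, with log2 ratios of 0.75 and 0.58. Noxa1, the activator of NOX1, was the only listed gene more than 2-fold lower, with a log2 ratio of -1.42 at 2 weeks and -0.03 at 8 weeks. Its signal was 0.341 in sham at 2 weeks and 0.127, 0.141 and 0.139 on the other arrays, so sham at 2 weeks was the array that stood apart. Of the 2 other catalytic subunits measured, neither Nox1 nor Duox1 was past 1.5-fold.

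The genes for superoxide dismutase 2, the mitochondrial form, and catalase, the peroxisomal enzyme that splits hydrogen peroxide, differed by less than 1.5-fold at both times. The Sod2 signal was 384 in sham and 344 in TAC at 2 weeks, and 385 in sham and 330 in TAC at 8 weeks. Both TAC pools lay below both sham pools, with log2 ratios of -0.16 and -0.22. The SD between spots was 0.0940 and 0.0894 for probes at or above 0.25 of the percentile. Without scaling between arrays the Sod2 ratio at 8 weeks was -0.06, smaller than that SD. The Cat signal was 21.5 in sham and 19.0 in TAC at 2 weeks, and 16.3 and 18.4 at 8 weeks. Its log2 ratio was -0.18 at 2 weeks and 0.17 at 8 weeks, and the other Cat probe gave -0.21 and 0.13. On the brighter probe both TAC pools lay between the sham pools, which differed by -0.39 on the log2 scale. On the dimmer probe the sham pools, at 0.966 and 0.930, differed by -0.06, and TAC lay below both at 2 weeks with 0.838 and above both at 8 weeks with 1.02. Of the 5 listed partners of these enzymes none was past 1.5-fold, and Sod1, the cytosolic dismutase, had log2 ratios of -0.30 and -0.21. Sod3, the extracellular dismutase, had 0.26 at both times.

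Gpx3, which encodes the secreted glutathione peroxidase, was past 1.5-fold at 8 weeks. Its signal was 11.4 in sham and 13.4 in TAC at 2 weeks, and 12.0 in sham and 19.9 in TAC at 8 weeks. TAC over sham was 1.17-fold at 2 weeks and 1.65-fold at 8 weeks, and both TAC pools lay above both sham pools. Of 10 other genes of glutathione peroxidases and glutathione synthesis 9 were measured and none was past 1.5-fold, with medians of 0.06 and 0.17. Gpx1, the cytosolic enzyme, had log2 ratios of 0.23 and 0.45, and Gpx7, an enzyme of the endoplasmic reticulum, 0.39 and 0.24. None of 12 peroxiredoxin and thioredoxin genes was past 1.5-fold, with medians of -0.10 and -0.02. Srxn1, which repairs oxidized peroxiredoxins, had -0.05 and 0.55, and Txnip, an inhibitor of thioredoxin, 0.15 and -0.41.

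Nqo1, which encodes a quinone reductase, was 1.11-fold higher in TAC at 2 weeks and 1.70-fold at 8 weeks. Its signal was 1.96 in sham and 2.19 in TAC at 2 weeks, and 2.41 in sham and 4.10 in TAC at 8 weeks. TAC at 8 weeks stood above the other 3 arrays, and TAC at 2 weeks lay between the sham pools. The log2 ratio at 8 weeks was 0.61 above that at 2 weeks, and 2.62% of the 14259 genes gained more than 1.5-fold in the same way.

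Hmox1, which encodes the enzyme that breaks heme down to biliverdin, iron and carbon monoxide, was higher in TAC at both times on its brighter probe. That probe gave 1.29 in sham and 1.85 in TAC at 2 weeks, and 1.31 in sham and 2.20 in TAC at 8 weeks. TAC was 1.44-fold and 1.67-fold higher, and both TAC pools lay above both sham pools. The dimmer probe did not show this, with 0.757 and 0.722 at 2 weeks and 0.673 and 0.720 at 8 weeks and log2 ratios of -0.07 and 0.10. Averaged over both probes, the log2 ratio was 0.23 at 2 weeks and 0.42 at 8 weeks, below 1.5-fold at both times. Which parts of the transcript the probes cover was not examined.

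**Figure D2:**
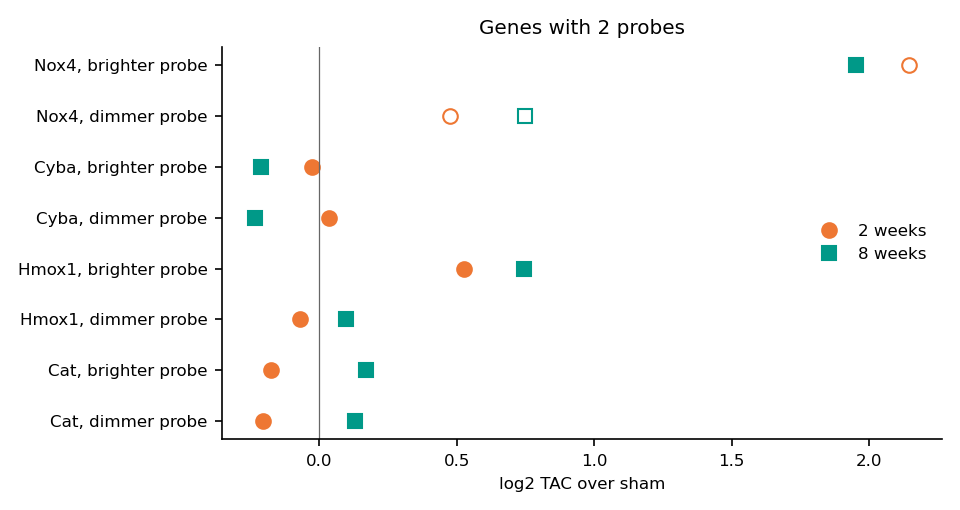
Log2 ratio of TAC over sham for both probes of the 4 genes that have 2, with circles for 2 weeks and squares for 8 weeks. Open symbols mark ratios in which the probe was not well above background on an array, and the Hmox1 and Nox4 probes lie farther apart than those of Cyba and Cat.

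The other targets and regulators of NRF2 were spread on both sides of 0. Of 15 listed genes 14 were measured, 3 lay above 0 at 2 weeks and 9 at 8 weeks, and their medians were -0.15 and 0.13. None was more than 1.5-fold higher at either time. Gstm1 and Gsta3, both glutathione S-transferases, were lower in TAC, with log2 ratios of -0.62 and -0.55 for Gstm1 and of -0.43 and -0.71 for Gsta3. Each was past 1.5-fold at 1 of the times. Of 5 genes of heme breakdown and iron storage none was past 1.5-fold, with medians of -0.05 and -0.09. The ferritin chain Fth1 had a log2 ratio of -0.26 at both times, and the chain Ftl1 had 0.09 and then 0.22.

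Mt1 and Mt2 lie next to each other on mouse chromosome 8, after Mt4 and Mt3, and Mt2 comes first. Because the results turn on this pair, the 250 bases before each start site are shown from RefSeq on GRCm38.p6, both on the plus strand. Capitals mark matches to the core of the metal response element, the site of the zinc-sensing factor MTF1, searched as TGCACNC and TGCGCNC on both strands.
Mt2, chr8:94172368-94172617: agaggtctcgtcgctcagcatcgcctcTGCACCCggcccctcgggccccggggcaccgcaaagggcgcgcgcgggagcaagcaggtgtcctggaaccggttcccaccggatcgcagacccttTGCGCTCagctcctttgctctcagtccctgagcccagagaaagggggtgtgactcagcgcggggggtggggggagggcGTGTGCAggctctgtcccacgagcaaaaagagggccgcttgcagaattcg
Mt1, chr8:94178839-94179088: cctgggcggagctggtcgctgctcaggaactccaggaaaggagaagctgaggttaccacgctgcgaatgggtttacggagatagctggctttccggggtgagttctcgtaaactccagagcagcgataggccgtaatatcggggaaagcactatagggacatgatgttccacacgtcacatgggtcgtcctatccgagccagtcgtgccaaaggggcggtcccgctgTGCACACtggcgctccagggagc
The Mt2 window holds 3 matches, the farthest 223 and the nearest 50 bases before the start, and the nearest is on the minus strand. The Mt1 window holds 1 match, 23 bases before the start given in RefSeq. Bases after that start were not searched, so the counts depend on where each start is placed and do not compare the whole promoters. Of 32851 promoter windows of the same length 21.4% hold at least 1 match and 1.26% at least 3. The antioxidant response element, searched as TGACNNNGC on both strands, has 1 match in the Mt2 window, 79 bases before the start and apart from the others, and 10.2% of windows hold one. Of the 7 other genes with a window, Nox4 holds 1 metal response element match and the others neither motif. No window was available for Hmox1, and sites farther than 250 bases before a start were not searched for any gene. A match is a run of letters and not a measured binding site.

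Mt2 was higher in TAC at both times and differed most between the sham pools. Its signal was 56.8 in sham and 123 in TAC at 2 weeks, and 19.0 in sham and 66.9 in TAC at 8 weeks. The ratio of TAC over sham was 2.16-fold for the pools at 2 weeks and 3.51-fold for those at 8 weeks, or 1.11 and 1.81 on the log2 scale. Both TAC pools lay above both sham pools, but TAC at 8 weeks was only slightly above sham at 2 weeks. The sham pool at 2 weeks was 2.99-fold above that at 8 weeks. Only 1% of 15155 genes were more than 2-fold lower in sham at 8 weeks than in sham at 2 weeks, and 1.66% were more than 2-fold higher. The gain of the ratio from 2 to 8 weeks was 0.71 on the log2 scale, while the TAC signal itself was lower at 8 weeks.

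Mt1 followed the same order of arrays as Mt2 but for 1 pair. Its signal was 362 in sham and 478 in TAC at 2 weeks, and 197 in sham and 310 in TAC at 8 weeks. TAC was 1.32-fold and 1.58-fold higher, and TAC at 8 weeks lay below sham at 2 weeks. The sham pool at 2 weeks was 1.84-fold above that at 8 weeks, and 2.28% of genes were more than 1.5-fold lower in sham at 8 weeks than in sham at 2 weeks. Against the mean of both sham pools, a reference chosen after the values were seen, the log2 ratios were 0.84 at 2 weeks and 0.22 at 8 weeks for Mt1. For Mt2 they were 1.90 and 1.02. With this reference the ratio was larger at 2 weeks than at 8 weeks for both genes, the reverse of the order against the sham pool of each time. The longest run that the Mt1 and Mt2 transcripts share is 20 bases, and they are 60.7% identical over their alignment.

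Of the 5 listed genes for other metallothioneins and for the zinc response none was past 1.5-fold, with medians of -0.07 and -0.16. Slc39a14, a zinc importer, had log2 ratios of 0.06 and 0.41, and Mt4 had -0.08 and -0.36. Metallothioneins are also induced by glucocorticoids and in the acute phase, and other genes known for this response were listed. Of 7 such genes 3 were more than 1.5-fold higher at each time, where 6.78% and 7.24% of all genes were, and their medians were 0.58 and 0.47. At 2 weeks 4 of the 7 lay above 0, and Per1, Zbtb16 and Tsc22d3 had -0.21, -0.05 and -0.05. At 8 weeks 6 of the 7 lay above 0. Fkbp5, which encodes a chaperone of the glucocorticoid receptor, gave 3.25 and 5.34 in sham and TAC at 2 weeks and 3.01 and 7.10 at 8 weeks, 1.64-fold and 2.36-fold higher. Serpina3n, an acute-phase protease inhibitor, was 2.65-fold and 1.97-fold higher. Between the sham pools the 7 genes ran from -0.54 for Zbtb16 to 0.67 for Serpina3n, with a median of -0.11, and Mt1 had -0.88 and Mt2 -1.58. The part of this response in the metallothionein signal was not tested.

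**Figure D3:**
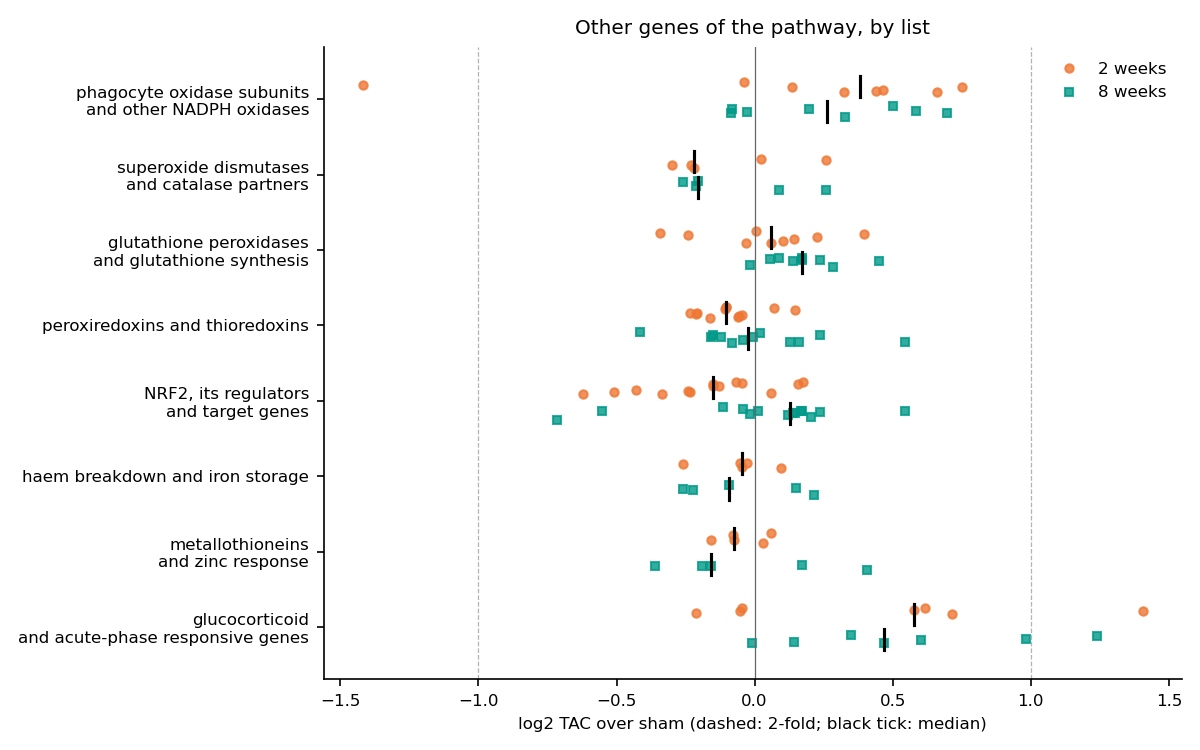
Log2 ratio of TAC over sham for the other genes of each list that were well above background on all 4 arrays, with circles for 2 weeks, squares for 8 weeks, black ticks for the medians and dashed lines at 2-fold. Most genes lie between the dashed lines, with Noxa1 far to the left at 2 weeks and Serpina3n and Fkbp5 to the right.

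Leaving aside the glucocorticoid and acute-phase genes, the lists hold 60 genes, of which 59 had a probe and 54 were measured. At 2 weeks none was more than 2-fold higher and 1, Noxa1, was more than 2-fold lower, and their median log2 ratio was -0.05. At 8 weeks none was past 2-fold in either direction and the median was 0.04. Of all measured genes 2.42% were more than 2-fold higher and 1.18% lower at 2 weeks, and 3.27% and 2.05% at 8 weeks. With the 1.5-fold limit, 2 were higher and 2 lower at 2 weeks among the 54, and 1 was higher and 1 lower at 8 weeks. The shares of all genes past this limit were 6.78% higher and 3.32% lower at 2 weeks, and 7.24% and 5.62% at 8 weeks.

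Across both times, on the probe that stands for each gene, both TAC pools lay above both sham pools for Nox4, Hmox1, Gpx3 and Mt2. They lay below them for Cyba and Sod2. Of the 9 members well above background on all arrays that is 3 above and 2 below, where 23.8% of 14259 genes lay above and 25.7% below. The dimmer probes of Hmox1 and Cyba did not keep this order, and the Cyba difference at 2 weeks was smaller than the SD between spots. Cybb and Cat had ratios of opposite sign at the 2 times. Nqo1, Gpx3 and Mt2 had the largest gains in log2 ratio from 2 to 8 weeks, 0.61, 0.50 and 0.71, and no change is given for Nox4, since its ratio at 2 weeks is a lower bound.

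**Figure D4:**
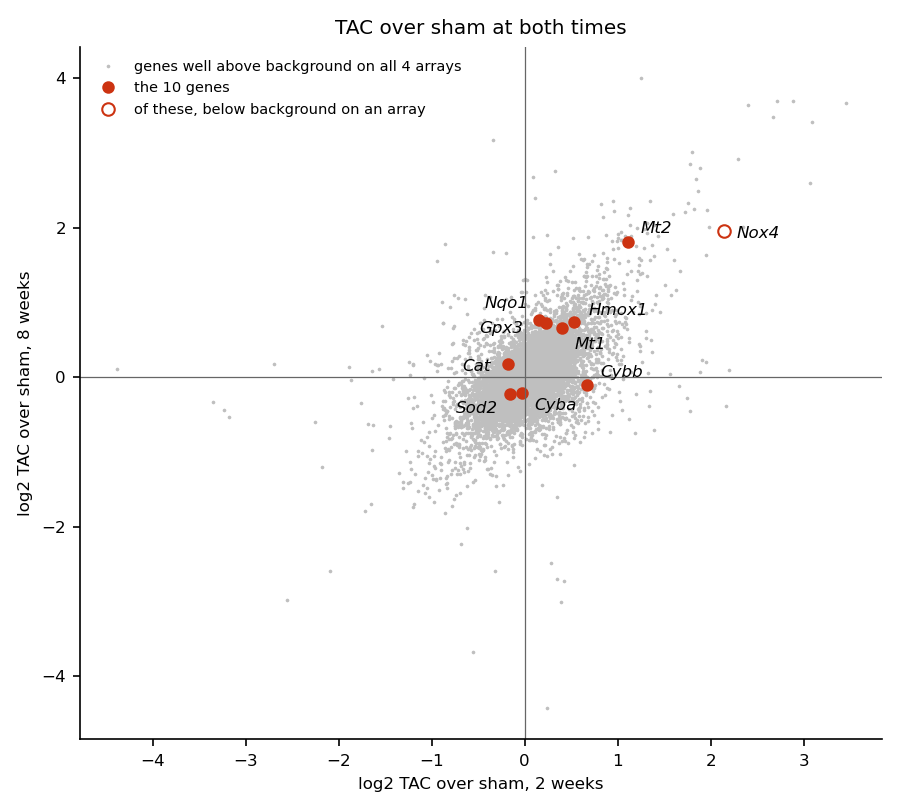
Log2 ratio of TAC over sham at 2 weeks against that at 8 weeks, with the 10 genes in red over the 14259 genes well above background on all arrays in grey. Nox4 (open, below background in sham at 2 weeks) and Mt2 lie at the upper right, Nqo1 and Gpx3 near 0 at 2 weeks and at 0.76 and 0.73 at 8 weeks, and Cybb at 0.68 and -0.11.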

How the data were processed

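Total RNA of 4 heart pools was hybridized to SurePrint G3 Mouse GE 8x60K arrays in 1 color (Cy3). The authors deposited the scanner output of Agilent Feature Extraction, given as version 9.1 in the processing notes and 10.7.3.1 in the file headers. Its processed signal is an intensity per spot after background subtraction, not scaled between arrays. The deposited value table of the series holds intensity values of the same arrays and was used as an alternative. The methods name GeneSpring GX11.

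From these, log2 of the processed signal was taken, outlier spots were dropped, spots of a probe were averaged and each array was centred on the 75th percentile of its probes, controls left out. Of 32342 probes named by a RefSeq or Ensembl transcript 29358 matched a symbol. A gene was measured when its brightest probe was well above background on at least 1 array of the pair, and called when past 2-fold or 1.5-fold and well above background on the brighter array. Where a probe was below background on the dimmer array, the fold is given as a lower bound that leaves out noise between spots. It is set against the probe's own signal there or, if higher, the dimmest probe that passed the flag.

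The members and lists were chosen with earlier results of these data known. All members are named, and of each list the genes past 1.5-fold in 1 direction at both times, or otherwise the 2 with the largest mean size of log2 ratio on all arrays. Not every such marker is given, and Ncf4, Noxa1, Nox1, Duox1, Tcf21, Ly6g, Per1, Zbtb16 and Tsc22d3 were named after their values were seen. The calling was tested on simulated data. Alternatives were quantile, median, spot-based and no scaling, normexp with an offset of 50 (limma 3.58.1, R 4.3.3), the value table, outlier spots kept, the mean over probes, other fold limits, no filter on dim probes and, added later, the mean of both sham arrays. Other computations used Python 3.11.15, pandas 2.3.3 and numpy 2.4.6.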

Additional observations from a re-analysis of the deposited data

Results flagged for a closer look

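Cybb and Cat had log2 ratios of opposite sign at the 2 times, a difference that was not tested since each ratio rests on 1 pair of pools. The log2 ratio of Cybb at 8 weeks minus that at 2 weeks was -0.78, and that of Cat was 0.35. Without scaling between arrays the Cybb ratio at 8 weeks was 0.06, so that its signs did not differ. Against the mean of both sham pools the Cat ratios were 0.02 at 2 weeks and -0.03 at 8 weeks.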

How the results depend on the processing

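With 1 pool per group, the number of arrays limits the precision and no value could be recomputed with a replicate left out. No paired analysis was possible because the sham and TAC groups of a time were 1 pool each, and a model over both times was not run. With the normexp correction 1 of the 10 genes, Mt2, was more than 2-fold higher at 2 weeks and 1 at 8 weeks, and the median log2 ratio at 2 weeks was 0.14. With a limit of 3-fold 1 gene was left at 2 weeks, and with 1.5-fold 6 were past it at 8 weeks. The median at 8 weeks was 0.86 without scaling, which moved the median of all genes by 0.17, 0.54 with the mean over probes and, added after the data were seen, 0.49 against the mean of both sham pools. The causes were not tested. Of 180 values of single genes under alternatives, 155 moved by less than the SD between spots, 25 moved by more and none of the called values changed sign. The Cyba ratio at 2 weeks, which was not called, took the opposite sign under 2 of 9 settings. Nox4 and Cybb, whose signals lay near background, had their lowest ratios at 2 weeks under the normexp correction.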

Other observations

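Of the neutrophil markers, whose cells carry the NOX2 oxidase, some were higher in TAC at both times and others differed little. Of 7 listed, 5 were measured at each time and 3 were more than 2-fold higher at each time, against 2.42% and 3.27% of all genes. Ly6g was 1.19-fold and 1.29-fold higher, and Csf3r had log2 ratios of -0.05 and 0.06. S100a8 and S100a9, which encode the subunits of calprotectin, were 2.16-fold and 2.31-fold higher at 2 weeks and 4.51-fold and 3.99-fold higher at 8 weeks. The granule genes Mmp8 and Ngp were not well above background on any array. The summed signal of the markers without Csf3r, the brightest, was 3.16 in sham and 5.07 in TAC at 2 weeks, and 2.58 and 5.78 at 8 weeks. With Csf3r it was 335 and 325 at 2 weeks, and 276 and 290 at 8 weeks.

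Endothelial markers had median log2 ratios of 0.21 and -0.01, with none of 6 past 1.5-fold at either time. Of the erythroid markers 3 were measured, with medians of -0.28 and 0.08, and Slc4a1, the red-cell anion exchanger, was lower at 2 weeks with a log2 ratio of -0.64. None of 5 adipocyte markers was well above background on any array.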
